A study of Mus musculus with 15 samples.

Results

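The 10 genes described here store iron in the liver, carry it in and out of cells, or set the level of hepcidin, the hormone of iron balance. They are Ftl1, Fth1, Hamp, Hamp2, Tfrc, Tfr2, Trf, Slc40a1, Bmp6 and Id1, chosen by name among the 24411 genes in the count files. All 10 passed the filter on low counts, which left 14098 genes for testing. RNA with a polyA tail was sequenced from livers of male mice of the FVB/NJ strain, frozen fresh, in 5 groups of 3 libraries. WT was wild-type FVB liver. The other 4 groups carried combinations of 3 introduced genes: β-catenin with the change S45Y (CTNNB1), NRF2 with the change G31A (NFE2L2) and human MET, the receptor of hepatocyte growth factor. CTNNB1_NFE2L2_MET held all 3, and CTNNB1_MET, CTNNB1_NFE2L2 and NFE2L2_MET each held the pair in their name. Changes at that site keep β-catenin from being marked for degradation, and the NRF2 change lies in the region that its inhibitor KEAP1 binds. No control carried an empty vector or a single introduced gene among the libraries analysed here. The labels give no age, vector, delivery route or time of harvest. They do not say whether each library is a different animal, and p-values cover only the scatter among these samples. The question behind the design is how each introduced gene, added to the other pair, changes the liver.

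Ferritin is the storage protein of iron, a shell built from heavy chains (Fth1), which oxidise iron, and light chains (Ftl1), which help to form its mineral core. Transferrin (Trf), made by hepatocytes, carries iron in plasma, transferrin receptor 1 (Tfrc) takes it into cells, and ferroportin (Slc40a1) is the exporter. Hepcidin, encoded by Hamp, binds ferroportin and has it degraded, and hepatocytes raise Hamp when endothelial BMP6 signals through BMP receptors and SMAD proteins. Transferrin receptor 2 (Tfr2) and HFE take part in sensing of iron-loaded transferrin, and Id1 is a standard target of the BMP signal. Iron regulatory proteins (Aco1 and Ireb2) bind hairpins in transcripts when iron is low: at the start of a transcript this blocks translation, and at its end it protects Tfrc mRNA. Such hairpins set protein output for ferritin and ferroportin, which RNA counts do not measure.

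A search of 1 GENCODE transcript (release for GRCm38) of each member found hairpins of this type in 4 of 10. The pattern was C, 5 bases, CAGTGN with N not G, and 5 bases that pair with the first 5, G with T allowed. Of 58797 protein-coding transcripts, 426 (0.725%) held it, so a match is uncommon but is only a match of letters. The 27-base sites are printed 5′ to 3′ with the 6-base loop in capitals, because they show which members carry a hairpin and at which end of the transcript. The first 3 lie in the 5′ UTR.
Fth1: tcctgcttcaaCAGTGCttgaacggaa
Ftl1: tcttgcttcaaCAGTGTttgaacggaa
Slc40a1: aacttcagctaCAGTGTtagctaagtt
The 3′ UTR of Tfrc held 4 of them, in this order from its start.
Tfrc, site 1: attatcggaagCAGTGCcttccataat
Tfrc, site 2: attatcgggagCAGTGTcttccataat
Tfrc, site 3: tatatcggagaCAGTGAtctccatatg
Tfrc, site 4: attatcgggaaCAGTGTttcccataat

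Levels are CPM, read counts scaled to the library total with TMM factors, given for replicates 1, 2 and 3 of a group in that order. Group values are mean ± SD with n = 3. Differences are log2 fold changes ± standard error from edgeR's quasi-likelihood test, and a gene is said to rise or fall when its Benjamini-Hochberg adjusted p over all 14098 genes was under 0.05. Libraries held 14084343 to 20702618 gene counts, and 8.69 to 25.9% of reads were unmapped, most in WT. The readouts of the introduced genes followed the labels: the NRF2 target Nqo1 stood at 4.92 to 5.90 CPM in WT and at 73.8 or above in the 3 NFE2L2 groups, and the β-catenin target Glul at 512 to 594 in WT and 1575 or above in the 3 CTNNB1 groups. Counts of mouse Ctnnb1 averaged 266 CPM in WT, 334 in NFE2L2_MET and 339 to 439 in the groups given CTNNB1, while Nfe2l2 and Met overlapped WT in every group given them except Nfe2l2 in CTNNB1_NFE2L2_MET. How reads of the introduced copies map is not given in the labels, so these counts do not check them. Hepatocyte markers (6 genes) summed to 80572 ± 12513 CPM in WT, 32142 ± 4350.1 in CTNNB1_NFE2L2 and 163381 ± 23635 in NFE2L2_MET. Much of the NFE2L2_MET sum was Alb, at a mean of 123472 CPM against 50866 in WT. Alb, Apoa1 and Ahsg rose there, beside 13.5% of all genes, and Ttr, Apoh and F2 did not pass. Because this was bulk tissue, fewer cells of a type and less RNA per cell cannot be told apart. Among the 10 comparisons many share a group, WT above all, so their results are not independent of each other. Adding a gene to a pair is short for CTNNB1_NFE2L2_MET against the group with that pair alone. The words raised and lowered then name a difference between separate groups, whose cause was not tested.

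The members' counts are read against the share of all genes called. Shares in parentheses are those of all genes called in that direction. For CTNNB1_NFE2L2_MET against WT the count was 6 beside 49.9% of all genes, 3 higher (26.5%) and 3 lower (23.4%). For CTNNB1_NFE2L2 against WT the count was 7 beside 48.7% of all genes, 3 higher (24.5%) and 4 lower (24.2%). For CTNNB1_MET against WT the count was 5 beside 17.2% of all genes, 1 higher (11%) and 4 lower (6.22%). For NFE2L2_MET against WT the count was 2 beside 23.4% of all genes, 2 higher (13.5%) and 0 lower (9.89%). For the addition of CTNNB1 to NFE2L2_MET the count was 4 beside 30.7% of all genes, 2 higher (16.4%) and 2 lower (14.3%). For the addition of NFE2L2 to CTNNB1_MET the count was 8 beside 33.8% of all genes, 4 higher (18.4%) and 4 lower (15.4%). For the addition of MET to CTNNB1_NFE2L2 the count was 3 beside 25% of all genes, 2 higher (13.1%) and 1 lower (11.8%). For CTNNB1_NFE2L2 against NFE2L2_MET the count was 4 beside 37.2% of all genes, 2 higher (18.3%) and 2 lower (18.9%). For CTNNB1_NFE2L2 against CTNNB1_MET the count was 6 beside 35.1% of all genes, 4 higher (17.9%) and 2 lower (17.2%). For CTNNB1_MET against NFE2L2_MET the count was 1 beside 14.3% of all genes, 0 higher (6.96%) and 1 lower (7.36%). A difference anywhere among the 5 groups was called for 8 of 10 members, all but Hamp2 and Bmp6, and for 65.5% of genes. Several of these shares lie near the background. Each of the 5 calls in CTNNB1_MET against WT ended when some single library was left out, and the count then ranged from 0 to 4.

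Fth1, the heavy chain, was higher in every group with mutant NRF2 than in WT. WT libraries held 1500.1, 1309 and 1351 CPM, CTNNB1_NFE2L2_MET 7451, 4892 and 4318, CTNNB1_MET 2122, 2042 and 1891, CTNNB1_NFE2L2 5751, 6202 and 4926 and NFE2L2_MET 2918, 2423 and 3171. No model library overlapped the WT range, and the 3 CTNNB1_NFE2L2_MET libraries overlapped those of CTNNB1_NFE2L2. Against WT, Fth1 rose by 2.002 ± 0.19 (adjusted p = 8.50e-07) in CTNNB1_NFE2L2_MET, 2.02 ± 0.19 (adjusted p = 7.92e-07) in CTNNB1_NFE2L2 and 1.03 ± 0.19 (adjusted p = 0.00122) in NFE2L2_MET. In CTNNB1_MET, the group without mutant NRF2, the difference was 0.54 ± 0.19 (adjusted p = 0.0588), short of the threshold. The other 3 calls held with each library left out in turn.

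Fth1 also separated the models from each other. Adding NFE2L2 to CTNNB1_MET raised it by 1.46 ± 0.19 (adjusted p = 4.37e-05), and adding CTNNB1 to NFE2L2_MET raised it by 0.97 ± 0.19 (adjusted p = 0.00126). CTNNB1_NFE2L2 was higher than NFE2L2_MET by 0.99 ± 0.19 (adjusted p = 7.86e-04) and higher than CTNNB1_MET by 1.48 ± 0.19 (adjusted p = 2.54e-05). Adding MET to CTNNB1_NFE2L2 gave -0.02 ± 0.19 (adjusted p = 0.956), with a 95% interval of -0.43 to 0.40. In order of mean, CTNNB1_NFE2L2 and CTNNB1_NFE2L2_MET were followed by NFE2L2_MET, CTNNB1_MET and WT, and the only step between neighbours past the threshold was the one down to NFE2L2_MET.

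Ftl1, the light chain, was the highest in CTNNB1_NFE2L2. Its levels were 15427, 15431 and 12273 CPM there, against 6452, 3396 and 4279 in WT, 7422, 7212 and 6216 in CTNNB1_NFE2L2_MET, 3053, 4234 and 4800.0 in CTNNB1_MET and 5151, 5129 and 6202 in NFE2L2_MET. All 3 CTNNB1_NFE2L2 libraries stood above the other 12. Ftl1 rose there by 1.61 ± 0.23 (adjusted p = 3.99e-05) against WT, by 1.84 ± 0.23 (adjusted p = 2.00e-05) against CTNNB1_MET and by 1.39 ± 0.23 (adjusted p = 2.28e-04) against NFE2L2_MET. Adding MET to this pair lowered Ftl1 by a log2 fold change of -1.05 ± 0.23 (adjusted p = 0.00363), whereas Fth1 did not pass that test.

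In CTNNB1_NFE2L2_MET, Ftl1 was above WT by 0.56 ± 0.22 (adjusted p = 0.0480), but WT replicate 1 lay inside the model's range. That call ended without WT replicate 2 (0.38, adjusted p = 0.167), WT replicate 3 (0.50, adjusted p = 0.126) or any of the model's libraries (0.51, adjusted p = 0.112; 0.53, adjusted p = 0.110; 0.64, adjusted p = 0.0513). Adding NFE2L2 to CTNNB1_MET raised Ftl1 by 0.79 ± 0.22 (adjusted p = 0.0135), a call that ended without CTNNB1_MET replicate 1 (0.62, adjusted p = 0.0635). In CTNNB1_MET and NFE2L2_MET the differences from WT were -0.22 (adjusted p = 0.539) and 0.22 (adjusted p = 0.505). Ftl1 counts are uncertain, since 78.9% of the 50-base stretches of its transcript also occur in 15 other annotated genes, against 6.59% for Fth1 with 1 other gene. Reads from such stretches can be left out of the count or given to the wrong copy.

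**Figure D1:**
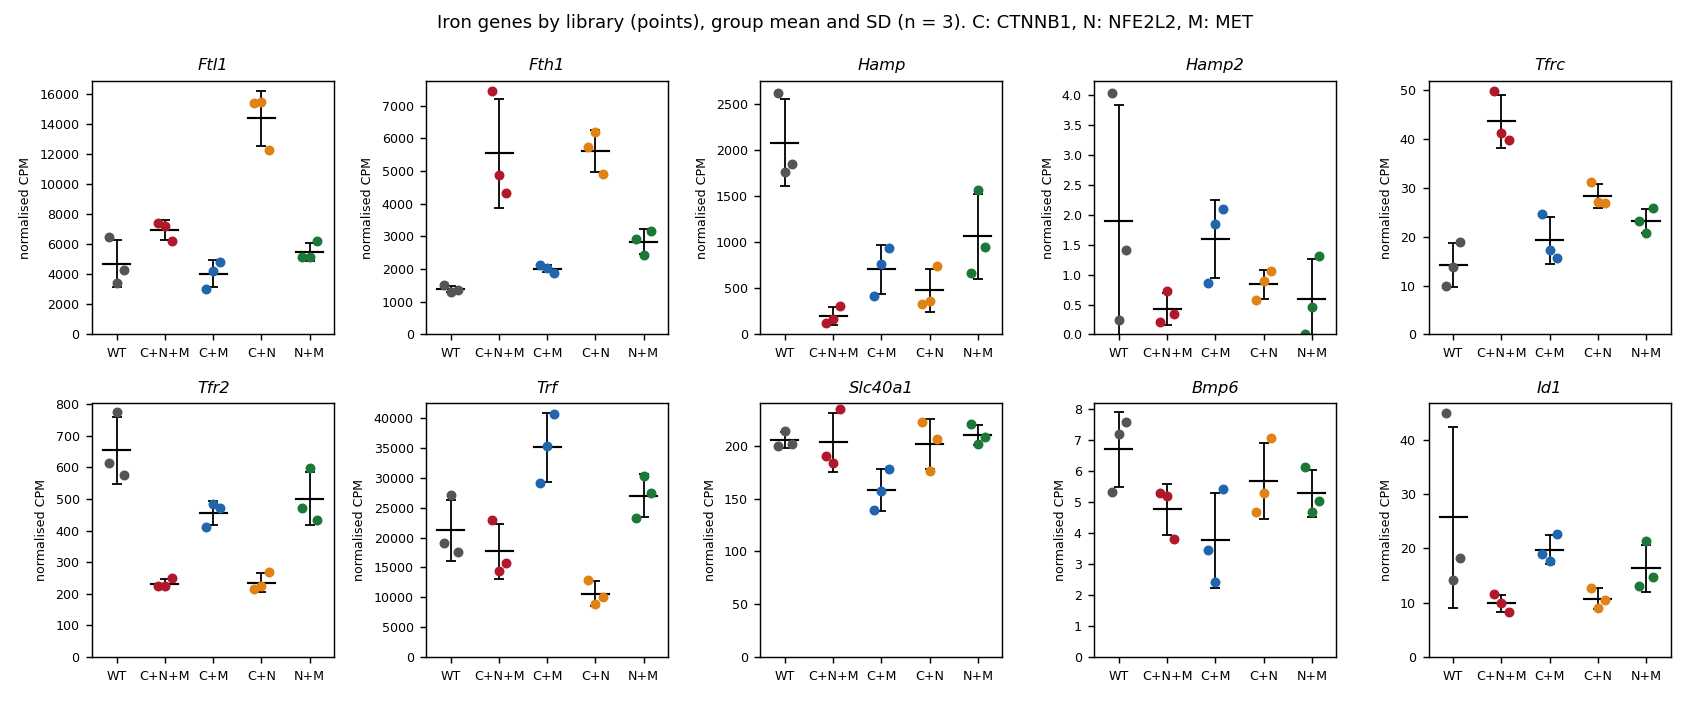
Normalised CPM of the 10 iron genes in each of 15 libraries (points) by group, with the group mean and SD (n = 3); each panel has its own linear axis from 0. Fth1 lies above and Hamp below WT in all 4 models, though the Fth1 difference in CTNNB1_MET was short of the threshold. Tfrc sits above WT in the 3 groups with mutant NRF2, and Tfr2 is lowest in the 2 groups with both mutant β-catenin and mutant NRF2.

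The 2 chains did not keep a fixed proportion. The ratio of Ftl1 to Fth1 counts was 4.30, 2.59 and 3.17 in WT, 0.996, 1.47 and 1.44 in CTNNB1_NFE2L2_MET, 1.44, 2.07 and 2.54 in CTNNB1_MET, 2.68, 2.49 and 2.49 in CTNNB1_NFE2L2 and 1.76, 2.12 and 1.96 in NFE2L2_MET. The lowest ratios were those of CTNNB1_NFE2L2_MET, at 1.30 ± 0.267 against 3.35 ± 0.869 in WT and 2.55 ± 0.111 in CTNNB1_NFE2L2. Together both chains took 0.590 ± 0.173% of gene counts in WT, 2.19 ± 0.318% in CTNNB1_NFE2L2, 1.42 ± 0.253% in CTNNB1_NFE2L2_MET, 0.735 ± 0.0965% in NFE2L2_MET and 0.570 ± 0.0577% in CTNNB1_MET. The ratio and the share are descriptions of these libraries and carry no test.

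**Figure D2:**
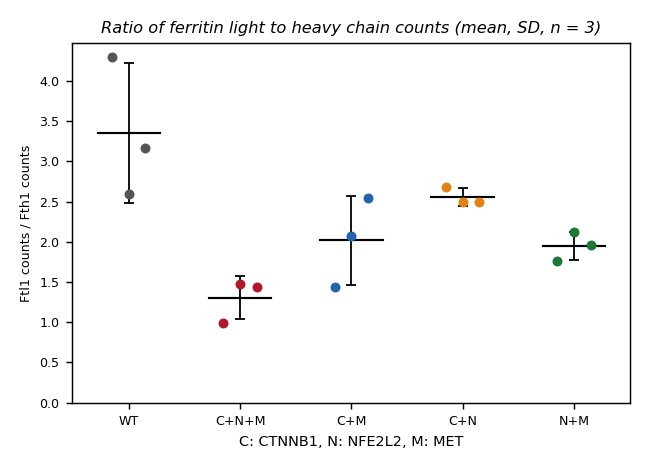
Ratio of Ftl1 to Fth1 counts in each library (points) with the group mean and SD (n = 3), on a linear axis from 0. The 3 CTNNB1_NFE2L2_MET libraries lie between 0.996 and 1.47, while those of CTNNB1_NFE2L2 lie between 2.49 and 2.68 and those of WT spread from 2.59 to 4.30.

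Kupffer cells, the liver's macrophages, hold much ferritin and ferroportin, so their markers were read beside these genes. The 10 markers summed to 276 to 322 CPM in WT, 624 to 923 in CTNNB1_NFE2L2_MET, 397 to 489.5 in CTNNB1_MET, 613 to 828 in CTNNB1_NFE2L2 and 534 to 644 in NFE2L2_MET. Against WT, 9, 5, 9 and 9 of the 10 rose in those models, none fell, and none stood at 0. Of all genes, 26.5%, 11%, 24.5% and 13.5% rose in the same order. The sum was above WT in every model library, and its part in the ferritin values was not tested.

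Slc40a1, the exporter, had the smallest ratio of the highest to the lowest group mean among the members. It stood at 200.5, 215 and 202 CPM in WT, 191, 184 and 236 in CTNNB1_NFE2L2_MET, 139, 157 and 178 in CTNNB1_MET, 223, 176 and 207 in CTNNB1_NFE2L2 and 221, 202 and 209 in NFE2L2_MET. The lowest levels were in CTNNB1_MET, where 2 of 3 libraries lay below the other 12. In that group Slc40a1 fell by a log2 fold change of -0.38 ± 0.12 (adjusted p = 0.0437) against WT, and against NFE2L2_MET by -0.41 ± 0.12 (adjusted p = 0.0342). CTNNB1_NFE2L2_MET and CTNNB1_NFE2L2 were above it by 0.36 (adjusted p = 0.0309) and 0.35 (adjusted p = 0.0347). Each of these 4 calls ended when single libraries were left out. Against WT, leaving out any library except CTNNB1_MET replicate 3 gave an adjusted p between 0.0697 and 0.182. Against NFE2L2_MET only the fit without CTNNB1_MET replicate 3 kept the call, and the others gave 0.0559 to 0.129. Without CTNNB1_MET replicate 1 the other differences were 0.28, adjusted p = 0.125 and 0.27, adjusted p = 0.147. Without CTNNB1_MET replicate 2 they were 0.36, adjusted p = 0.0821 and 0.35, adjusted p = 0.0871. The first also ended without CTNNB1_NFE2L2_MET replicate 3 (0.24, adjusted p = 0.150), and the second without CTNNB1_NFE2L2 replicate 1 (0.28, adjusted p = 0.135) or replicate 3 (0.33, adjusted p = 0.0858). In the 3 groups with mutant NRF2 the differences from WT had 95% intervals of -0.29 to 0.25 (CTNNB1_NFE2L2_MET), -0.30 to 0.24 (CTNNB1_NFE2L2) and -0.24 to 0.30 (NFE2L2_MET) in log2 units.

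Hepcidin has a second mouse gene, Hamp2, next to Hamp on chromosome 7. Hamp spans 30942368 to 30944029 and Hamp2 30922372 to 30924181 (GRCm38, minus strand). The 250 bases before each start are shown, from RefSeq on GRCm38.p6, because Hamp and Hamp2 differ there in a motif of the BMP input. Capitals mark the BMP-responsive element GGCGCC, which SMAD proteins bind in the hepcidin promoter, and the STAT site TTCNNNGAA, read by the inflammatory input.
Hamp, chr7:30944030-30944279, minus strand: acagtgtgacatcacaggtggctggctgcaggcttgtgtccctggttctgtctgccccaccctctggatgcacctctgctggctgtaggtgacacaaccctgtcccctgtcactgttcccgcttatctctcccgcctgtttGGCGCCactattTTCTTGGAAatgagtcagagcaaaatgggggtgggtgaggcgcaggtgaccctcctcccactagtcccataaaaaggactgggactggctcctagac
Hamp2, chr7:30924182-30924431, minus strand: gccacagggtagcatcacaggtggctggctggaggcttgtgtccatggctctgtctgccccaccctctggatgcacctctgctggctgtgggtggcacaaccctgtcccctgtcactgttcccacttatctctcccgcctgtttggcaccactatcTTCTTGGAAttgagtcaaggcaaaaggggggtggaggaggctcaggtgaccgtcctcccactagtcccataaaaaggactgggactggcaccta
In Hamp, GGCGCC begins 109 bases and TTCTTGGAA 97 bases before the start. Hamp2 holds TTCTTGGAA 94 bases before its start. Over 247 aligned bases 227 (91.9%) are identical, and 1 of the 20 substitutions, G145A, counted from the 5′ end of the Hamp window, falls inside GGCGCC. Both strands were searched, and among 32851 mouse promoters of this length 9.59% hold GGCGCC and 7.02% the STAT site, so each match is a description only.

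Promoter windows were found for 7 of 10 members (11 windows), and none was found for Slc40a1, Trf and Id1. GGCGCC also begins 89 bases before a start of Tfrc, and the antioxidant response element TGACNNNGC, the NRF2 motif, begins 108 bases before the start of Bmp6 as TGACCGTGC. It occurs in 10.2% of promoters. The TCF core CTTTGA, bound by partners of β-catenin, occurs in 13.8% of promoters and in none of the 11 windows.

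Hamp was lower than in WT in every model library. WT held 2620.2, 1762 and 1852 CPM, CTNNB1_NFE2L2_MET 120.7, 165 and 305, CTNNB1_MET 418, 762 and 937, CTNNB1_NFE2L2 331, 362 and 746 and NFE2L2_MET 671, 1568 and 949. Among the models the CTNNB1_NFE2L2_MET libraries were lowest, all 3 below every other library, and NFE2L2_MET replicate 2 came nearest to WT. Hamp fell by a log2 fold change of -3.40 ± 0.48 (adjusted p = 7.92e-05) against WT in CTNNB1_NFE2L2_MET, 10.5-fold lower, and by -2.12 ± 0.45 (adjusted p = 0.00198) in CTNNB1_NFE2L2. In CTNNB1_MET it fell by a log2 fold change of -1.56 ± 0.45 (adjusted p = 0.0306), and in NFE2L2_MET the difference was -0.97 ± 0.44 (adjusted p = 0.133). The CTNNB1_MET call ended without WT replicate 1 (-1.36, adjusted p = 0.0920), CTNNB1_MET replicate 1 (-1.29, adjusted p = 0.118) or CTNNB1_MET replicate 2 (-1.62, adjusted p = 0.0779).

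Each introduced gene was then read against the pair without it. Adding CTNNB1 to NFE2L2_MET lowered Hamp by a log2 fold change of -2.43 ± 0.46 (adjusted p = 0.00165), and adding NFE2L2 to CTNNB1_MET lowered it by -1.84 ± 0.45 (adjusted p = 0.00722). Both held with each library left out. Adding MET to CTNNB1_NFE2L2 gave -1.28 ± 0.44 (adjusted p = 0.0513), which passed the threshold without CTNNB1_NFE2L2_MET replicate 3 (-1.74, adjusted p = 0.0216) or CTNNB1_NFE2L2 replicate 1 (-1.49, adjusted p = 0.0430). In order of mean, WT was followed by NFE2L2_MET, CTNNB1_MET, CTNNB1_NFE2L2 and CTNNB1_NFE2L2_MET, and no step between neighbours passed the test.

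Hepcidin also rises in inflammation, so 8 acute phase genes, Saa1 among them, were read beside Hamp. Orm1, Fga, Fgb, Fgg and Itih3 fell against WT in CTNNB1_NFE2L2_MET and CTNNB1_NFE2L2, where 23.4% and 24.2% of all genes fell. Their log2 fold changes were -2.21 to -1.03 and -2.34 to -1.83 in turn. Saa1 and Saa2 fell in CTNNB1_NFE2L2 alone, Orm2 in no model, and none of the 8 passed in CTNNB1_MET or NFE2L2_MET. The WT level of Saa2 rested on 1 high library, with a median of 23.9 CPM and a highest value of 6547. For Orm1 these were 593 and 2230. No result with a library left out is given for these 8 genes. The part of inflammation in the Hamp values was not tested. Saa1 stood at 46.8, 8052 and 99.3 CPM in WT and 936, 5915 and 872 in NFE2L2_MET, and at 46.5 to 209.6, 119 to 216 and 30.99 to 46.7 in CTNNB1_NFE2L2_MET, CTNNB1_MET and CTNNB1_NFE2L2. Replicate 2 of WT and of NFE2L2_MET stood apart. Hamp in WT replicate 2 was the lowest of the 3 WT libraries, while in NFE2L2_MET replicate 2 it was the highest of its group. With both libraries left out, a choice made after seeing the data, Hamp differed from WT by a log2 fold change of -3.52, adjusted p = 3.06e-04 in CTNNB1_NFE2L2_MET, -2.21, adjusted p = 0.00458 in CTNNB1_NFE2L2, -1.68, adjusted p = 0.0453 in CTNNB1_MET and -1.47, adjusted p = 0.0944 in NFE2L2_MET.

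Hamp2 was close to the floor. Its levels were 4.03, 0.237 and 1.41 CPM in WT, 0.205, 0.721 and 0.341 in CTNNB1_NFE2L2_MET, 0.858, 1.84 and 2.09 in CTNNB1_MET, 0.580, 0.888 and 1.06 in CTNNB1_NFE2L2 and 0, 0.466 and 1.32 in NFE2L2_MET. The groups overlapped except for CTNNB1_NFE2L2_MET and CTNNB1_MET, and Hamp2 passed none of the 10 comparisons. The difference of CTNNB1_NFE2L2_MET from WT was -2.11 ± 0.94 (adjusted p = 0.0759), with an interval of -4.20 to -0.03. Of its 50-base stretches 16.2% occur in Hamp, and of those of Hamp 16.6% in Hamp2, so a small share of either count could belong to the other.

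Tfr2, the iron sensor of hepatocytes, fell in the groups that held mutant β-catenin. WT libraries stood at 613, 774 and 575 CPM, CTNNB1_NFE2L2_MET at 224, 224 and 249, CTNNB1_MET at 412, 485 and 470.4, CTNNB1_NFE2L2 at 214, 224 and 268 and NFE2L2_MET at 472, 597 and 434. The 6 libraries with both mutant β-catenin and mutant NRF2 lay below all others. Tfr2 fell by a log2 fold change of -1.49 ± 0.15 (adjusted p = 1.15e-06) in CTNNB1_NFE2L2_MET and -1.47 ± 0.15 (adjusted p = 1.36e-06) in CTNNB1_NFE2L2, and these 2 groups differed from each other by -0.02 with an interval of -0.35 to 0.31. In CTNNB1_MET the change was -0.52 ± 0.15 (adjusted p = 0.0232), which ended without WT replicate 2 (-0.39, adjusted p = 0.0864) or CTNNB1_MET replicate 1 (-0.45, adjusted p = 0.105). NFE2L2_MET differed from WT by a log2 fold change of -0.38 ± 0.15 (adjusted p = 0.0689), which passed without WT replicate 3 (-0.47, adjusted p = 0.0471) or NFE2L2_MET replicate 2 (-0.53, adjusted p = 0.0248).

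Among the models, Tfr2 fell by a log2 fold change of -1.11 ± 0.15 (adjusted p = 5.52e-05) when CTNNB1 was added to NFE2L2_MET and by -0.97 ± 0.15 (adjusted p = 1.49e-04) when NFE2L2 was added to CTNNB1_MET. CTNNB1_NFE2L2 was below NFE2L2_MET by a log2 fold change of -1.09 ± 0.15 (adjusted p = 4.22e-05) and below CTNNB1_MET by -0.95 ± 0.15 (adjusted p = 1.35e-04). All 4 held with each library left out. NFE2L2_MET and CTNNB1_MET, neighbours in the order, overlapped and differed by a log2 fold change of -0.14 (adjusted p = 0.582). Hamp and Tfr2 are both made mainly by hepatocytes, whose 6 markers summed to 69126 to 75603 CPM in CTNNB1_NFE2L2_MET (4 fell against WT) and 28569.8 to 36986 in CTNNB1_NFE2L2 (all 6 fell), beside 72564 to 94991 in WT and 138469 to 142697 in CTNNB1_MET (3 rose). In NFE2L2_MET the markers summed to 136371 to 180270 CPM, and Alb, Apoa1 and Ahsg rose. Of all genes, 23.4% fell in CTNNB1_NFE2L2_MET, 24.2% fell in CTNNB1_NFE2L2, 11% rose in CTNNB1_MET and 13.5% rose in NFE2L2_MET. The part of the hepatocyte markers in the Hamp and Tfr2 values was not tested.

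Tfrc, the uptake receptor found on most dividing cells, moved the other way. It held 9.85, 13.9 and 18.9 CPM in WT, 49.8, 41.3 and 39.7 in CTNNB1_NFE2L2_MET, 24.6, 17.4 and 15.7 in CTNNB1_MET, 31.2, 27.1 and 26.8 in CTNNB1_NFE2L2 and 23.2, 20.8 and 25.8 in NFE2L2_MET. The CTNNB1_NFE2L2_MET libraries were the 3 highest. Against WT, Tfrc rose by 1.61 ± 0.20 (adjusted p = 1.56e-05) there and by 0.99 ± 0.20 (adjusted p = 0.00104) in CTNNB1_NFE2L2, while CTNNB1_MET differed by 0.43 ± 0.21 (adjusted p = 0.169), a difference that passed without WT replicate 3 (0.69, adjusted p = 0.0296). The rise in NFE2L2_MET, 0.71 ± 0.21 (adjusted p = 0.0229), ended without WT replicate 1 (0.50, adjusted p = 0.0833), WT replicate 2 (0.68, adjusted p = 0.0590), NFE2L2_MET replicate 1 (0.71, adjusted p = 0.0525) or NFE2L2_MET replicate 3 (0.63, adjusted p = 0.0793).

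Every introduced gene added to the other pair went with more Tfrc. The rise was 0.91 ± 0.20 (adjusted p = 0.00307) for CTNNB1, 1.18 ± 0.20 (adjusted p = 4.31e-04) for NFE2L2 and 0.62 ± 0.20 (adjusted p = 0.0314) for MET. The first 2 held with each library left out. The MET call ended without CTNNB1_NFE2L2_MET replicate 1 (0.51, adjusted p = 0.116) or 2 (0.66, adjusted p = 0.0525), or CTNNB1_NFE2L2 replicate 2 (0.59, adjusted p = 0.0992) or 3 (0.58, adjusted p = 0.0982). CTNNB1_NFE2L2 was above CTNNB1_MET by 0.56 ± 0.20 (adjusted p = 0.0407), with adjusted p between 0.0611 and 0.153 without CTNNB1_MET replicate 2 or 3 or any library of CTNNB1_NFE2L2.

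Dividing cells and red cell precursors use much Tfrc, so both were read beside it. The 7 cell division markers summed to 10.97 to 14.7 CPM in WT and to 168 to 228 in CTNNB1_NFE2L2_MET, 135 to 163 in CTNNB1_NFE2L2, 50.5 to 71.8 in CTNNB1_MET and 16.2 to 28.01 in NFE2L2_MET. All 7 rose against WT in the 3 groups with mutant β-catenin, and 3 of them (Mki67, Top2a and Aurkb) in NFE2L2_MET. Of all genes, 26.5% rose in CTNNB1_NFE2L2_MET, 24.5% in CTNNB1_NFE2L2, 11% in CTNNB1_MET and 13.5% in NFE2L2_MET. Of 7 red cell markers, the 4 globin genes were listed at 0 in every library, which cannot tell absent transcripts from uncounted ones. The list summed to 18.7 to 27.6 CPM in WT, 9.95 to 15.4 in CTNNB1_NFE2L2_MET and 31.2 to 37.0 in CTNNB1_MET. It summed to 33.1 to 55.3 in CTNNB1_NFE2L2 and 14.4 to 15.2 in NFE2L2_MET. Alas2 alone held most of the mean sum in WT (24.3 of 24.6 CPM), CTNNB1_NFE2L2_MET (11.3 of 12.5), CTNNB1_MET (33.8 of 35.0) and NFE2L2_MET (14.6 of 14.9). In CTNNB1_NFE2L2 it held 25.8 of 46.9, so the sum mainly describes 1 gene. Slc4a1, the red cell anion exchanger, named after its values were seen, stood at 19.6, 21.7 and 9.73 CPM in CTNNB1_NFE2L2 and at 2.05 or below in the other 12 libraries. The part of either cell state in the Tfrc values was not tested.

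Trf, the plasma carrier, was the member with the highest CPM in WT and set CTNNB1_MET and CTNNB1_NFE2L2 apart. It stood at 19170.1, 27108 and 17529.5 CPM in WT, 23042, 14422 and 15685 in CTNNB1_NFE2L2_MET, 29248, 35374 and 40769 in CTNNB1_MET, 12873, 8809.8 and 10058 in CTNNB1_NFE2L2 and 23274, 30332 and 27544 in NFE2L2_MET. All 3 CTNNB1_NFE2L2 libraries were below the other 12. There Trf fell by a log2 fold change of -1.01 ± 0.23 (adjusted p = 0.00237) against WT, by -1.73 ± 0.24 (adjusted p = 4.88e-05) against CTNNB1_MET and by -1.35 ± 0.24 (adjusted p = 3.81e-04) against NFE2L2_MET, and all 3 held with each library left out. The hepatocyte marker sum was also lowest in CTNNB1_NFE2L2, where all 6 fell against WT, beside 24.2% of all genes. Between CTNNB1_NFE2L2_MET and CTNNB1_NFE2L2, Ttr (-0.04, adjusted p = 0.903), Apoh (-0.33, adjusted p = 0.0773), Apoa1 and F2 did not pass the threshold. Alb (1.61, adjusted p = 9.08e-05) and Ahsg (0.89, adjusted p = 9.66e-04) were higher in CTNNB1_NFE2L2_MET. The part of the hepatocyte markers in the Trf value was not tested.

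In CTNNB1_MET, Trf rose by 0.72 ± 0.23 (adjusted p = 0.0442) against WT. Leaving out WT replicate 1 (0.65, adjusted p = 0.129), WT replicate 3 (0.60, adjusted p = 0.134) or CTNNB1_MET replicate 1 (0.84, adjusted p = 0.0541), 2 (0.72, adjusted p = 0.104) or 3 (0.60, adjusted p = 0.137) ended that call. Adding NFE2L2 to CTNNB1_MET lowered Trf by a log2 fold change of -0.99 ± 0.23 (adjusted p = 0.00442), and this held with each library left out. Without the 3 libraries marked as added it was -0.79, adjusted p = 0.0638. Adding MET to CTNNB1_NFE2L2 raised it by 0.74 ± 0.23 (adjusted p = 0.0297), which ended without CTNNB1_NFE2L2_MET replicate 1 (0.51, adjusted p = 0.151) or CTNNB1_NFE2L2 replicate 2 (0.63, adjusted p = 0.124) or 3 (0.71, adjusted p = 0.0915). Adding CTNNB1 to NFE2L2_MET gave -0.61 ± 0.23 (adjusted p = 0.0591), and it passed without CTNNB1_NFE2L2_MET replicate 1 (-0.84, adjusted p = 0.0199).

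**Figure D3:**
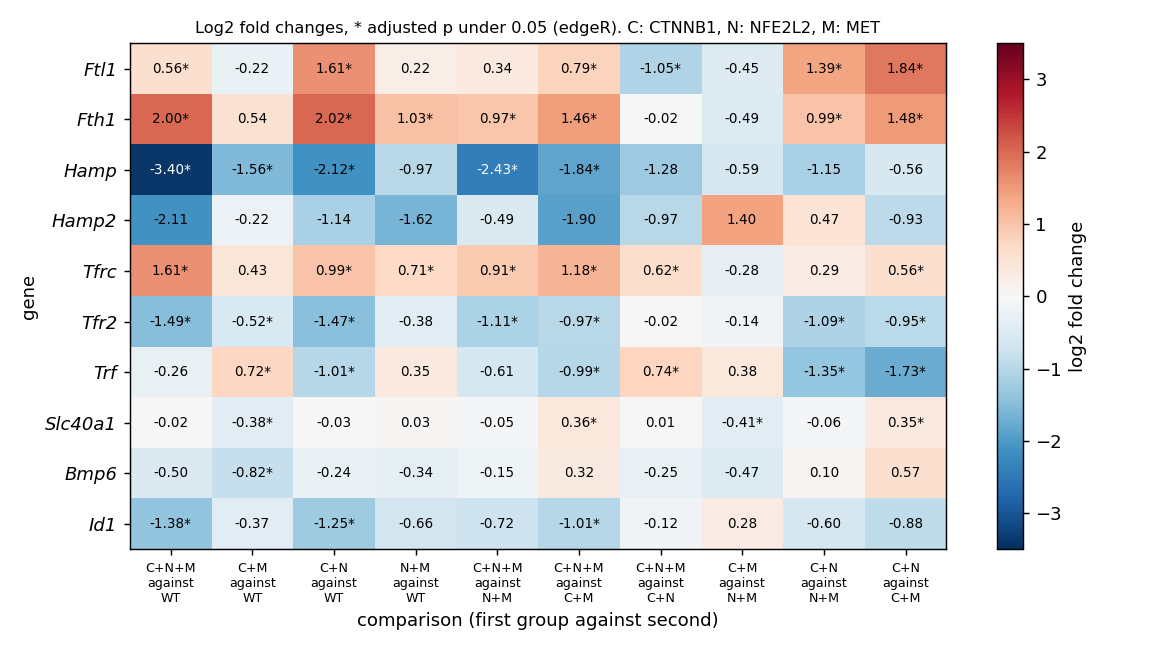
Log2 fold changes of the 10 iron genes (rows) in 10 comparisons (columns, first group against second) from edgeR's quasi-likelihood fit; red is higher and blue lower in the first group, and a star marks an adjusted p under 0.05. The Hamp row is blue in all columns and starred in 5, and the Fth1 row is starred red in the 3 comparisons of a mutant NRF2 group with WT.

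Bmp6, the BMP ligand that liver endothelium makes, was low throughout, at 5.32, 7.18 and 7.57 CPM in WT, 5.27, 5.19 and 3.79 in CTNNB1_NFE2L2_MET, 3.43, 2.41 and 5.43 in CTNNB1_MET, 4.69, 5.28 and 7.06 in CTNNB1_NFE2L2 and 6.13, 4.66 and 5.04 in NFE2L2_MET. Its groups overlapped in 9 of 10 comparisons, all but CTNNB1_NFE2L2_MET against WT, and its only call was a log2 fold change of -0.82 ± 0.26 (adjusted p = 0.0442) in CTNNB1_MET against WT. That ended without WT replicate 2 (-0.77, adjusted p = 0.0990), WT replicate 3 (-0.72, adjusted p = 0.115), CTNNB1_MET replicate 1 (-0.75, adjusted p = 0.146) or CTNNB1_MET replicate 2 (-0.59, adjusted p = 0.166). Endothelial markers (10 genes) summed to 270.4 to 331 CPM in WT and 272 to 345 in CTNNB1_MET. The sum covers opposite moves. In CTNNB1_MET the means of Pecam1, Cdh5, Stab1, Stab2 and Lyve1 were above WT, and those of Clec4g, Kdr, Eng, Vwf and Tek below. In CTNNB1_NFE2L2_MET, the group with the least Hamp, Bmp6 differed from WT by a log2 fold change of -0.50 ± 0.26 (adjusted p = 0.122), and the endothelial sum was 259 to 283 CPM. Here the means of Pecam1, Cdh5 and Lyve1 (13.7 CPM against 2.36 in WT) were above WT. Those of the other markers were below, among them Eng (43.7 against 62.2) and Clec4g (37.5 against 57.1).

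Id1, the BMP target, stood at 44.9, 14.1 and 18.3 CPM in WT, 11.5, 9.86 and 8.27 in CTNNB1_NFE2L2_MET, 19.1, 17.6 and 22.7 in CTNNB1_MET, 12.8, 8.94 and 10.6 in CTNNB1_NFE2L2 and 13.02, 21.3 and 14.7 in NFE2L2_MET. WT replicate 1 was far above the other 2 WT libraries, which still lay above all 6 libraries of CTNNB1_NFE2L2_MET and CTNNB1_NFE2L2. Id1 fell by a log2 fold change of -1.38 ± 0.36 (adjusted p = 0.00606) in CTNNB1_NFE2L2_MET and -1.25 ± 0.35 (adjusted p = 0.0106) in CTNNB1_NFE2L2. Without WT replicate 1 the falls shrank to -0.71, adjusted p = 0.0162 and -0.59, adjusted p = 0.0416. In CTNNB1_MET and NFE2L2_MET the differences from WT were -0.37 (adjusted p = 0.512) and -0.66 (adjusted p = 0.197), the latter with an adjusted p of 0.0463 (-0.96) without WT replicate 2. Adding NFE2L2 to CTNNB1_MET lowered Id1 by a log2 fold change of -1.01 ± 0.36 (adjusted p = 0.0446), and leaving out any of the 6 libraries compared ended that call for Id1 (adjusted p 0.0690 to 0.129).

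Other genes that BMP and SMAD signalling is known to raise were taken from a list of 8. Against WT, 5 fell in CTNNB1_NFE2L2_MET, 5 fell in CTNNB1_MET, 5 fell in CTNNB1_NFE2L2, 3 fell in NFE2L2_MET, and none rose. Over all genes tested, 23.4%, 6.22%, 24.2% and 9.89% fell in these comparisons. The list's median log2 fold changes were -1.28, -0.95, -0.74 and -0.73, beside medians over all genes between -0.02 and 0.00. With 1 library left out, the counts that fell ranged from 5 to 6 (CTNNB1_NFE2L2_MET), 2 to 4 (CTNNB1_MET), 4 to 6 (CTNNB1_NFE2L2) and 2 to 5 (NFE2L2_MET). The 2 in CTNNB1_MET was reached without WT replicate 1 or CTNNB1_MET replicate 1 or 2, and the 5 in NFE2L2_MET without WT replicate 2.

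Smad9, which encodes SMAD8, a transducer of the BMP signal, showed the deepest of these falls. It held 36.1, 32.9 and 43.2 CPM in WT and 1.64, 2.98 and 6.91 in CTNNB1_NFE2L2_MET, a log2 fold change of -3.28 ± 0.37 (adjusted p = 1.08e-05), and the other models lay between (12.9 to 20.7 in CTNNB1_MET, 10.5 to 15.6 in CTNNB1_NFE2L2, 9.32 to 12.8 in NFE2L2_MET). In CTNNB1_NFE2L2_MET it was also below NFE2L2_MET (-1.49, adjusted p = 0.00829), CTNNB1_MET (-2.12, adjusted p = 7.50e-04) and CTNNB1_NFE2L2 (-1.74, adjusted p = 0.00441). Smad7, the inhibitory SMAD, stood at 24.8, 17.4 and 18.5 CPM in WT and at 5.58 to 12.9 in the models, and it fell against WT in all 4, by a log2 fold change of -1.27, -1.28, -0.79 and -0.88 in the order above. Id3 fell in all 4 as well (-1.48, -1.04, -0.65 and -0.70), with 73.1, 62.6 and 44.4 CPM in WT and 19.3, 21.7 and 23.7 in CTNNB1_NFE2L2_MET. Without WT replicate 1 the NFE2L2_MET value of Id3 was -0.53, adjusted p = 0.0502. The CTNNB1_MET value of Smad9, -1.16 (adjusted p = 0.0298), ended without WT replicate 1 (-1.18, adjusted p = 0.0592) or 3 (-1.04, adjusted p = 0.0777), or CTNNB1_MET replicate 1 (-0.9995, adjusted p = 0.124) or 2 (-1.15, adjusted p = 0.0871).

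Id2 stood at 224, 196 and 99.9 CPM in WT, 63.4, 65.2 and 84.1 in CTNNB1_NFE2L2_MET, 59.6, 51.9 and 65.5 in CTNNB1_NFE2L2, 108, 82.1 and 97.4 in CTNNB1_MET, which overlapped WT, and 154, 186 and 138 in NFE2L2_MET. It fell by a log2 fold change of -1.29 ± 0.24 (adjusted p = 4.94e-04) and -1.55 ± 0.24 (adjusted p = 1.32e-04) in the first 2 of these models and differed by -0.12 (adjusted p = 0.753) in NFE2L2_MET, and adding CTNNB1 to NFE2L2_MET lowered it by -1.17 ± 0.24 (adjusted p = 0.00213). Atoh8, a transcription factor, stood at 43.6, 15.8 and 30.5 CPM in WT and 8.55, 7.12 and 7.05 in CTNNB1_NFE2L2_MET, a log2 fold change of -1.98 ± 0.41 (adjusted p = 0.00141). Falls of Id2 (-0.85, adjusted p = 0.0240) and Atoh8 (-1.25, adjusted p = 0.0477) in CTNNB1_MET ended without WT replicate 1 (-0.63, adjusted p = 0.100 and -0.88, adjusted p = 0.170). The call for Id2 also ended without any other library but WT replicate 3 (adjusted p 0.0506 to 0.0932), and that for Atoh8 without WT replicate 3 or CTNNB1_MET replicate 1 or 2 (adjusted p 0.0922 to 0.169). Smad6, at 11.4, 5.93 and 9.24 CPM in WT, fell in CTNNB1_NFE2L2 by a log2 fold change of -0.66 ± 0.26 (adjusted p = 0.0465), a call that leaving out any library but WT replicate 2 ended (adjusted p 0.0523 to 0.213).

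**Figure D4:**
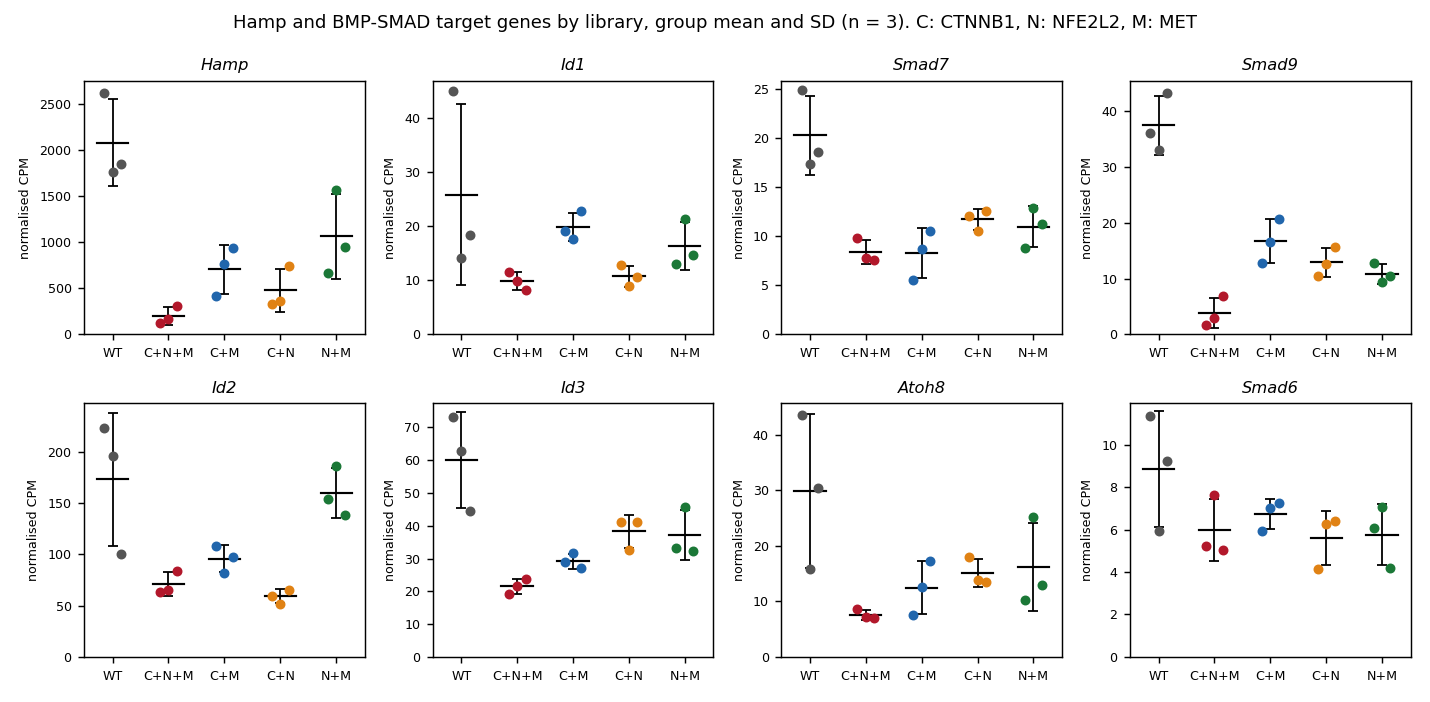
Normalised CPM of Hamp and 7 genes known as targets of BMP and SMAD signalling in each library (points) by group, with mean and SD (n = 3), each panel on its own linear axis from 0. Smad9 and Hamp are lowest in CTNNB1_NFE2L2_MET, and Id2 in NFE2L2_MET overlaps WT.

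The machinery that feeds the hepcidin signal was read from a list of 19 genes. In CTNNB1_NFE2L2_MET 3 rose and 7 fell against WT, in CTNNB1_MET 2 and 2, in CTNNB1_NFE2L2 3 and 8, and in NFE2L2_MET 0 and 1. Of all genes, in the same order, 26.5% and 23.4%, 11% and 6.22%, 24.5% and 24.2%, and 13.5% and 9.89% rose and fell. The 8 that fell in CTNNB1_NFE2L2 became 5 without WT replicate 3, and the 1 in NFE2L2_MET became 5 under total-count scaling. The 2 that fell in CTNNB1_MET became 0 without CTNNB1_MET replicate 1 or 2, or WT replicate 2 or 3. The medians were -0.27, -0.16, -0.35 and -0.12. Hjv, the BMP co-receptor hemojuvelin, listed in the files under its older symbol Hfe2, stood at 51.7, 49.5 and 55.7 CPM in WT and 156, 183 and 154 in CTNNB1_NFE2L2. Hfe2 rose there by 1.65 ± 0.14 (adjusted p = 2.32e-07), and the 3 libraries were above the other 12. In CTNNB1_NFE2L2_MET its rise of 0.39 ± 0.14 (adjusted p = 0.0308) ended without WT replicate 1 (0.38, adjusted p = 0.0721) or 2 (0.35, adjusted p = 0.0846), or CTNNB1_NFE2L2_MET replicate 2 (0.37, adjusted p = 0.0729) or 3 (0.23, adjusted p = 0.182). Hfe, the haemochromatosis protein, rose in CTNNB1_NFE2L2 alone among the 4 models, by 0.79 ± 0.11 (adjusted p = 2.32e-05), from 36.6, 30.97 and 39.3 CPM in WT to 55.5, 63.7 and 65.1. In CTNNB1_NFE2L2_MET Hfe differed by 0.22 (adjusted p = 0.101), which passed without WT replicate 3 (0.30, adjusted p = 0.0434). Adding MET to CTNNB1_NFE2L2 lowered Hfe by a log2 fold change of -0.57 ± 0.10 (adjusted p = 0.00128).

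Tmprss6, the protease that restrains hepcidin by cleaving hemojuvelin, fell in CTNNB1_NFE2L2_MET and CTNNB1_NFE2L2. It held 797, 688 and 841 CPM in WT, 395, 418 and 466 in CTNNB1_NFE2L2_MET and 442, 372 and 490.2 in CTNNB1_NFE2L2, log2 fold changes of -0.86 ± 0.13 (adjusted p = 5.45e-05) and -0.83 ± 0.13 (adjusted p = 8.29e-05). The liver-enriched factor Creb3l3 fell in both too, by a log2 fold change of -0.88 ± 0.13 and -0.81 ± 0.13, from 398 to 451 CPM in WT to 199 to 260.4 and 215 to 285. Fkbp1a, whose product FKBP12 binds BMP receptors, rose from 55.1 to 60.1 CPM in WT to 99.1 to 122.3 (0.98, adjusted p = 2.32e-06) and 109.7 to 128 (1.07, adjusted p = 1.09e-06) in the same groups. Bmp2, the other endothelial BMP ligand, held 10.6, 14.1 and 21.3 CPM in WT and 5.07, 8.70 and 7.49 in CTNNB1_NFE2L2_MET, a log2 fold change of -1.11 ± 0.25 (adjusted p = 0.00180). Its falls in CTNNB1_NFE2L2 (-0.84, adjusted p = 0.0111) and CTNNB1_MET (-0.80, adjusted p = 0.0394) ended without WT replicate 3 (-0.53, adjusted p = 0.0750 and -0.49, adjusted p = 0.176), the former also without CTNNB1_NFE2L2 replicate 2 (-0.64, adjusted p = 0.0561) and the latter without any library but WT replicate 1.

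Genes of iron and heme transport were read from a list of 20, of which 17 were tested. Against WT, 3 rose and 3 fell in CTNNB1_NFE2L2_MET, 1 and 2 in CTNNB1_MET, 3 and 8 in CTNNB1_NFE2L2, and 4 and 3 in NFE2L2_MET. The shares of all genes were 26.5% and 23.4%, 11% and 6.22%, 24.5% and 24.2%, and 13.5% and 9.89% in turn. Without WT replicate 2 the rises numbered 8 in NFE2L2_MET and 4 in CTNNB1_MET. Falls in CTNNB1_MET numbered 0 without WT replicate 1 or CTNNB1_MET replicate 1, and in NFE2L2_MET 1 without WT replicate 2 or NFE2L2_MET replicate 3. Medians were -0.10, -0.07, -0.45 and 0.39. Heph, the ferroxidase hephaestin that works with ferroportin in gut, followed mutant NRF2. It held 1.22, 0.415 and 1.03 CPM in WT and 1.04, 1.205 and 0.627 in CTNNB1_MET, against 25.7, 24.8 and 26.4 in CTNNB1_NFE2L2_MET, 36.2, 41.6 and 38.9 in CTNNB1_NFE2L2 and 47.4, 24.4 and 43.3 in NFE2L2_MET. No library without mutant NRF2 reached the range of those with it. Heph rose by 4.87 ± 0.31 (adjusted p = 2.51e-08), 5.47 ± 0.31 (adjusted p = 7.38e-09) and 5.46 ± 0.31 (adjusted p = 2.25e-08) in these groups, and adding NFE2L2 to CTNNB1_MET raised it by 4.77 ± 0.30 (adjusted p = 6.93e-08).

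Slc48a1, the heme transporter HRG1 of the lysosome, rose in all 4 models. Its levels were 53.3 to 55.1 CPM in WT, 271 to 337 in CTNNB1_NFE2L2_MET, 114 to 142 in CTNNB1_MET, 169 to 183 in CTNNB1_NFE2L2 and 138 to 199 in NFE2L2_MET, and the rises were 2.53, 1.24, 1.68 and 1.71. Adding any of the 3 genes to the other pair raised it (CTNNB1 0.82, NFE2L2 1.29, MET 0.85). Slc11a1, an iron transporter of macrophage lysosomes, held 4.46 to 6.23 CPM in WT and rose in the 3 groups with mutant NRF2, by 2.45, 2.63 and 2.03, where Kupffer markers were also higher, and their part in its values was not tested. Slc39a14, which takes up iron not bound to transferrin, held 249, 344 and 268 CPM in WT and 77.9, 93.3 and 128 in CTNNB1_NFE2L2, a log2 fold change of -1.52 ± 0.26 (adjusted p = 2.65e-04). Its fall in CTNNB1_NFE2L2_MET (-0.81, adjusted p = 0.0167) ended without WT replicate 2 (-0.65, adjusted p = 0.0717) or CTNNB1_NFE2L2_MET replicate 2 (-0.66, adjusted p = 0.0726).

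Ceruloplasmin (Cp), the plasma ferroxidase, was lowest in CTNNB1_NFE2L2, where it held 627, 517 and 614 CPM against 1057, 1883 and 1382 in WT, a log2 fold change of -1.30 ± 0.18 (adjusted p = 4.10e-05). Adding MET to that pair raised it by 1.25 ± 0.18 (adjusted p = 2.88e-04). Its rise in NFE2L2_MET (0.60, adjusted p = 0.0271) ended without WT replicate 1 (0.42, adjusted p = 0.110) or 3 (0.57, adjusted p = 0.0683), or NFE2L2_MET replicate 2 (0.53, adjusted p = 0.0815) or 3 (0.63, adjusted p = 0.0532). Hemopexin (Hpx), the heme carrier of plasma and an acute phase gene, held 2779, 9107 and 3229.9 CPM in WT, with the high value in the library high in Saa1. Hpx fell by a log2 fold change of -1.36 ± 0.42 (adjusted p = 0.0162) in CTNNB1_NFE2L2, and the fall ended without WT replicate 2 (-0.60, adjusted p = 0.130) or CTNNB1_NFE2L2 replicate 2 (-1.30, adjusted p = 0.0558).

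**Figure D5:**
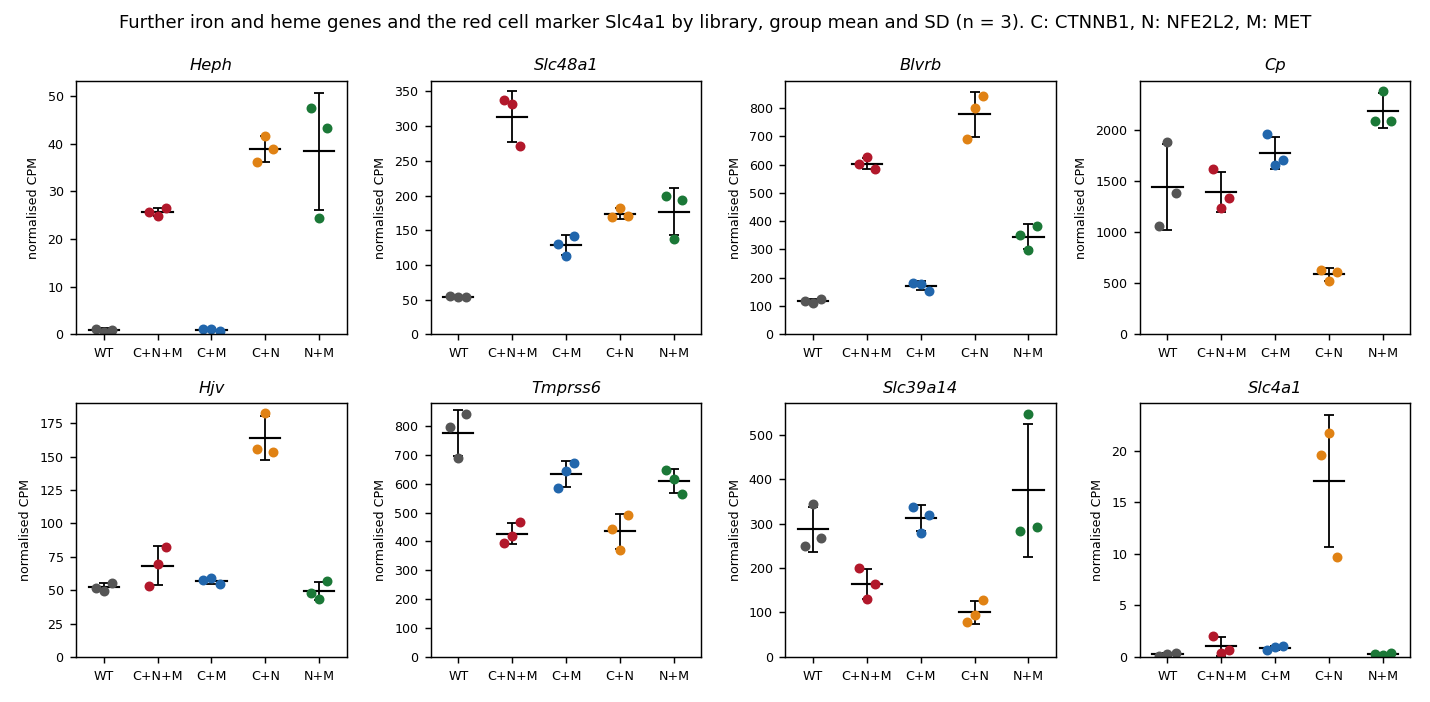
Normalised CPM of 7 further iron and heme genes and of the red cell gene Slc4a1 in each library (points) by group, with mean and SD (n = 3), each panel on its own linear axis from 0; Hjv is the row Hfe2. Heph is near 1 CPM in WT and CTNNB1_MET and at 24.4 CPM or above in the other 9 libraries, and Hjv and Slc4a1 stand out in CTNNB1_NFE2L2.

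Blvrb and Hmox1, both of heme breakdown, rose in the 3 groups with mutant NRF2. Of 14 genes of heme synthesis and breakdown, 4 rose and 3 fell in CTNNB1_NFE2L2_MET, 1 and 0 in CTNNB1_MET, 7 and 4 in CTNNB1_NFE2L2, and 2 and 4 in NFE2L2_MET, with medians of -0.10, -0.02, 0.20 and -0.09. The background over all genes was 26.5% and 23.4%, 11% and 6.22%, 24.5% and 24.2%, and 13.5% and 9.89% rising and falling. The 4 that fell in CTNNB1_NFE2L2 became 2 without CTNNB1_NFE2L2 replicate 1, and the 2 that rose in NFE2L2_MET became 1 without WT replicate 3 or NFE2L2_MET replicate 2 or 3. Blvrb, which reduces biliverdin and flavins, rose in all 4 models, from 110.2 to 126 CPM in WT to 583 to 625, 153 to 182, 689 to 843 and 297 to 384 (log2 2.36, 0.54, 2.73 and 1.55). Hmox1, heme oxygenase, which frees iron from heme, held 35.0, 23.8 and 25.1 CPM in WT, 71.3, 65.4 and 49.6 in CTNNB1_NFE2L2_MET and 70.8, 42.5 and 49.97 in CTNNB1_NFE2L2, rises of 1.15 ± 0.20 (adjusted p = 2.15e-04) and 0.96 ± 0.20 (adjusted p = 9.77e-04). In NFE2L2_MET its rise of 0.63 ± 0.20 (adjusted p = 0.0306) ended without WT replicate 2 (0.53, adjusted p = 0.0998) or 3 (0.56, adjusted p = 0.0939), or NFE2L2_MET replicate 2 (0.56, adjusted p = 0.0956) or 3 (0.64, adjusted p = 0.0703).

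The synthesis enzymes moved by group. Alad held 260.1 to 297 CPM in WT, rose to 436 to 524 in CTNNB1_NFE2L2 (0.72, adjusted p = 1.76e-04) and fell to 155 to 204 in NFE2L2_MET (-0.67, adjusted p = 0.00117). Abcb6, a porphyrin transporter, rose and fell in the same groups, at 0.57 (adjusted p = 7.85e-04) and -0.52 (adjusted p = 0.00481). Alas1, the first enzyme of the pathway in liver, ranged from 143 to 804 CPM within WT alone and passed no comparison with WT. Fech, which inserts the iron, rose in CTNNB1_NFE2L2 by 0.28 ± 0.11 (adjusted p = 0.0401), a call that ended without WT replicate 1 (0.24, adjusted p = 0.116) or 2 (0.23, adjusted p = 0.128), or CTNNB1_NFE2L2 replicate 2 (0.24, adjusted p = 0.133) or 3 (0.27, adjusted p = 0.0925).

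Among genes that read or handle the cell's iron pool, Ireb2 fell in all 4 models. Of 8 listed, 7 were tested, and 1 rose and 3 fell in CTNNB1_NFE2L2_MET, 1 and 1 in CTNNB1_MET, 1 and 2 in CTNNB1_NFE2L2, and 0 and 2 in NFE2L2_MET, with medians of -0.29, -0.22, -0.20 and -0.17. Over all genes the shares that rose and fell were 26.5% and 23.4%, 11% and 6.22%, 24.5% and 24.2%, and 13.5% and 9.89%. Leaving out a library moved each of these counts by at most 1, and by 0 in CTNNB1_NFE2L2_MET. Ireb2 (iron regulatory protein 2) held 83.3 to 92.8 CPM in WT and fell in all 4 models, by a log2 fold change of -0.77, -0.43, -0.75 and -0.34. The CTNNB1_MET call of Ireb2 ended without CTNNB1_MET replicate 1 (-0.42, adjusted p = 0.0543) or 2 (-0.39, adjusted p = 0.0616), and the NFE2L2_MET call without any library but WT replicate 1 (adjusted p 0.0562 to 0.113). Aco1 (iron regulatory protein 1) fell in CTNNB1_NFE2L2_MET by a log2 fold change of -0.60 ± 0.11 (adjusted p = 3.75e-04). Fbxl5, which has iron regulatory proteins degraded when iron is ample, rose there by 0.57 ± 0.13 (adjusted p = 0.00170), and in CTNNB1_NFE2L2 by 0.46 ± 0.13 (adjusted p = 0.00721). Its rise in CTNNB1_MET, 0.41 ± 0.13 (adjusted p = 0.0396), ended without WT replicate 1 (0.29, adjusted p = 0.150) or 2 (0.37, adjusted p = 0.111), or CTNNB1_MET replicate 1 (0.33, adjusted p = 0.163) or 2 (0.42, adjusted p = 0.0835). Ncoa4, the receptor for ferritin breakdown, passed no comparison with WT.

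The members lie on several chromosomes (GRCm38, GENCODE gene bounds). Ftl1 is on chromosome 7 at 45457944 to 45459886 and Fth1 on chromosome 19 at 9980600 to 9985111. Tfrc is on chromosome 16 at 32608896 to 32632794, Tfr2 on chromosome 5 at 137569822 to 137588081 and Trf on chromosome 9 at 103208876 to 103230286. Slc40a1 is on chromosome 1 at 45908070 to 45926532, Bmp6 on chromosome 13 at 38345716 to 38500314 and Id1 on chromosome 2 at 152736251 to 152737410.

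Levels of different genes can be set side by side only per length. Those of Ftl1 stay uncertain even so, since 78.9% of its 50-base stretches also occur in other annotated genes. In WT, CPM per kilobase of exon was 7737 for Trf, 5068 for Hamp, 4864 for Ftl1, 890 for Fth1, 197 for Tfr2, 61.1 for Slc40a1, 22.2 for Id1, 4.33 for Hamp2, 2.74 for Tfrc and 1.86 for Bmp6. In CTNNB1_NFE2L2_MET, Hamp stood at 481 and Fth1 at 3565 on this scale, so their order was reversed. In CTNNB1_NFE2L2, Ftl1 (14852) stood above Trf (3849).

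Genes with the most similar profile over the 15 libraries were found by Pearson's r of log2 CPM over genes whose log2 CPM averaged 3 or more. The libraries share groups and depth, so r is a description. For Fth1 they were Cstb (0.988), Ywhah (0.982) and Ifi30 (0.981), and for Ftl1 Wdr45 (0.970), Coq7 (0.965) and Pgam1 (0.964). Hamp was most like Acp6 (0.970), Scnn1a (0.969) and Serpinc1 (0.963), and Tfr2 most like Csrp3 (0.981), E2f8 (0.975) and Slc38a3 (0.971). For Tfrc they were Arf1 (0.972), Snx6 (0.966) and Nap1l1 (0.965), for Trf Fabp5 (0.936), Foxa3 (0.929) and Wdr82 (0.925), and for Id1 Aatf (0.909), Bcat2 (0.892) and Eif1 (0.887). The highest r was lower for Slc40a1 (Tbce, 0.862), and the low counts of Hamp2 (Ncdn, 0.908) and Bmp6 (Cand1, 0.910) make theirs less certain.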

How the data were processed

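Poly(A) RNA of 15 mouse liver libraries was sequenced on an Illumina instrument. Per the submitters' processing notes, the authors used Trimmomatic and STAR with mm10; for the versions, parameters and annotation the entry is: not given in the sources used here. The deposited values are raw read counts per gene. Column 2 (both strands) was used, since column 3 held 49.7 to 49.9% of the counts of columns 3 and 4 together. Antisense and overlapping genes therefore cannot be told apart. Counts were fitted over all 15 libraries with edgeR 4.0.16 in R 4.3.3 (TMM, filterByExpr, robust quasi-likelihood F test, Benjamini-Hochberg adjustment over 14098 of 24411 genes), and the code was tested on simulated data. Alternatives were RLE and total-count scaling, no filter, column 3, DESeq2 1.42.0, only the libraries compared, each library left out, and the 3 libraries whose files carry the word ADDED (WT, CTNNB1_NFE2L2_MET and CTNNB1_MET replicate 3) left out together or fitted with their own term. Named genes were the 10 members, fixed iron genes, the 4 genes with the smallest omnibus p in each iron list, and the 3 most alike genes per member. Some genes this rule names are not reported here. Members and lists were chosen with earlier results of these data known. Replicate numbers follow sample order and pair nothing. Intervals and tests cover the spread between these libraries only.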

Additional observations from a re-analysis of the deposited data

How the results depend on the processing

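No paired analysis was possible because nothing in the labels ties a sample of one group to a sample of another. Of 100 member differences 46 were called, 29 of them under every alternative and 31 with each library left out. Under total-count scaling, under which the median of all genes reached up to 0.38 (log2), Slc40a1 in CTNNB1_NFE2L2_MET against NFE2L2_MET turned from -0.05 to 0.31 (adjusted p = 0.0445), and the cause was not tested. That scaling also moved the share of called genes that were higher from 53.1 to 73.4% in CTNNB1_NFE2L2_MET against WT, 50.3 to 67.9% in CTNNB1_NFE2L2 against WT, 57.8 to 35.3% in NFE2L2_MET against WT, 53.5 to 88.5% in CTNNB1_NFE2L2_MET against NFE2L2_MET, 54.5 to 82.7% in CTNNB1_NFE2L2_MET against CTNNB1_MET, 48.6 to 67.8% in CTNNB1_MET against NFE2L2_MET, 49.2 to 82.0% in CTNNB1_NFE2L2 against NFE2L2_MET and 51.1 to 75.7% in CTNNB1_NFE2L2 against CTNNB1_MET. Members called in CTNNB1_MET against NFE2L2_MET (1) numbered 0 with total-count scaling, 2 with DESeq2, 2 with only the libraries compared and 0 without the 2 libraries high in Saa1. In CTNNB1_MET against WT (5) they numbered 3 without the filter, 2 with only the libraries compared and 3 without the 2 libraries high in Saa1, and in NFE2L2_MET against WT (2) they numbered 1 with only the libraries compared. With 1 library left out the members called ranged from 5 to 6 (CTNNB1_NFE2L2_MET against WT), 0 to 4 (CTNNB1_MET against WT), 7 to 7 (CTNNB1_NFE2L2 against WT), 1 to 3 (NFE2L2_MET against WT), 4 to 5 (CTNNB1_NFE2L2_MET against NFE2L2_MET), 5 to 7 (against CTNNB1_MET), 1 to 4 (against CTNNB1_NFE2L2), 0 to 1 (CTNNB1_MET against NFE2L2_MET), 4 to 5 (CTNNB1_NFE2L2 against NFE2L2_MET), 4 to 6 (CTNNB1_NFE2L2 against CTNNB1_MET) and 7 to 9 (any difference). Over all genes, calls moved from 4325 to 6928 in CTNNB1_NFE2L2_MET against NFE2L2_MET with total-count scaling, and with only the libraries compared from 2429 to 1505 in CTNNB1_MET against WT and from 3303 to 2115 in NFE2L2_MET against WT. Without the 3 added libraries, Trf in CTNNB1_NFE2L2_MET against CTNNB1_MET was -0.79, adjusted p = 0.0638. Of 79 calls among 34 other named genes, 58 held under every alternative. Depth limits Hamp2 and Bmp6, which had few reads.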

Other observations

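Genes of iron-sulfur cluster assembly and mitochondrial iron import (17 listed) were compared with WT, and in CTNNB1_NFE2L2 10 rose and 1 fell, beside 24.5% and 24.2% of all genes. With 1 library left out the number that rose was 6 to 9, the lowest without WT replicate 1 or CTNNB1_NFE2L2 replicate 2. The counts were 4 and 2 in CTNNB1_NFE2L2_MET, 1 and 1 in CTNNB1_MET, and 1 and 1 in NFE2L2_MET, with medians of 0.24, -0.14, -0.09 and 0.12 from CTNNB1_NFE2L2 on. Shares of all genes were 26.5% and 23.4% in CTNNB1_NFE2L2_MET, 11% and 6.22% in CTNNB1_MET, and 13.5% and 9.89% in NFE2L2_MET. Glrx5, a glutaredoxin that hands on iron-sulfur clusters, held 84.3, 75.4 and 74.1 CPM in WT and 144, 161 and 151 in CTNNB1_NFE2L2 (log2 fold change 0.96, adjusted p = 2.59e-06 by edgeR). The cochaperone Hscb stood at 3.81, 3.32 and 2.95 CPM in WT and 6.23, 7.05 and 7.28 CPM in CTNNB1_NFE2L2 (1.03, adjusted p = 5.86e-05), and Slc25a28, the iron importer mitoferrin 2, at 20.6, 16.7 and 16.9 CPM in WT and 24.5, 29.9 and 29.9 CPM in CTNNB1_NFE2L2 (0.64, adjusted p = 0.00113).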
